A study of Mus musculus with 34 samples.

Results

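Genes of the natriuretic peptide system and of the fetal gene switch of the heart were followed in the mouse left ventricle (LV) after myocardial infarction (MI). They were 10, chosen by gene symbol: Nppa, Nppb, Corin, Npr1, Npr3, Myh6, Myh7, Acta1, Actc1 and Ankrd1. All 10 were present among the 14552 genes of the first expression table and among the 17406 genes of the second, and all 10 passed the filter on low values in both tables.

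Nppa and Nppb encode the precursors of atrial and B-type natriuretic peptide, hormones that the heart secretes under stretch and that promote salt excretion and vessel relaxation. Corin is the protease that cuts the atrial precursor into its active form, Npr1 encodes the guanylyl cyclase receptor through which both peptides act, and Npr3 encodes the receptor that clears them. In the stressed adult rodent ventricle, fetal isoforms are known to return: Myh7 (beta myosin heavy chain) beside the adult Myh6 (alpha myosin heavy chain), and Acta1 (skeletal alpha-actin) beside Actc1 (cardiac alpha-actin). Ankrd1 encodes a stretch-responsive ankyrin repeat protein that binds titin and also enters the nucleus.

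All samples were LV of CFW mice, and MI was made by tying off the left anterior descending (LAD) coronary artery for good. The first table holds 10 libraries of uninjected hearts, from the ischemic area or the matching area of control hearts: 3 controls (libraries D, H and I), 3 hearts 4 h post-MI (C, D and E) and 4 hearts 24 h post-MI (C, D, G and H). The controls are titled sham, while another label of theirs gives no operation. The second table holds 24 libraries: 2 sham operations collected at 4 h, and infarcted hearts injected in the border zone right after ligation with modified mRNA (modRNA) labelled AC or Luc, collected at 4 h (4 AC, 4 Luc), 24 h (3 AC, 3 Luc) and 48 h (4 AC, 4 Luc). Luc stands for luciferase, a reporter with no cardiac function that serves as the injected control. The labels do not spell out AC. No group is both infarcted and uninjected in the second table, and no group is injected without infarction, so injection and infarction cannot be told apart there. Sample titles of that table differ in style between its sham and 4 h, its 24 h and its 48 h libraries, and no label names a run, so time points cannot be told apart from any difference in how those sets were handled. The labels of neither table say that libraries came from separate mice, so p-values measure the spread between these samples, which may be technical.

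Values are CPM, read counts relative to library size, not divided by gene length, scaled by the TMM method in the first table and by a method not given here in the second, and the tables were normalized separately, so levels are compared within a table only. The first table corresponds to 12553519 to 18952669 reads per library, if the lowest value of a library is taken as 1 read; the depth of the second is unknown. All 8 cardiomyocyte structural genes used as a check of the tissue were listed in every library, with summed levels of 13400 to 24700 CPM in the first table and 14200 to 47100 CPM in the second. Control library D stood apart from the other controls with 40038 CPM of ribosomal precursor RNA (Rn45s) against 6881 and 14567 CPM. Rn45s also varied among the 4 h libraries, from 15400 to 34500 CPM. The 24 h library G lay nearer to the controls than the other 24 h libraries for several of the genes below. Several results that rest on control D or 24 h library G, but not all, are also given without that library.

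In mm10, the genes lie as follows, with exons and introns included. Nppb (chr4:147985788-147987205, plus strand) and Nppa (chr4:148000722-148002074, plus strand) are neighbours. Myh6 (chr14:54941921-54966607, minus strand) and Myh7 (chr14:54970688-54994549, minus strand) also lie side by side, with the long noncoding RNA Mhrt on the opposite strand of Myh7. The other 6 are Corin (chr5:72300025-72504540, minus strand), Npr1 (chr3:90450592-90465866, minus strand), Npr3 (chr15:11839896-11907371, minus strand), Acta1 (chr8:123891758-123894775, minus strand), Actc1 (chr2:114047284-114052875, minus strand) and Ankrd1 (chr19:36111965-36119844, minus strand). Myh6 and Myh7, and Acta1 and Actc1, are close paralogs whose reads can be shared; in the first table such 50-bp reads were divided by an estimate, and for the second the counting is not given in the sources used here. Their single levels are uncertain to that extent.

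The 250 bases before the start of each gene (RefSeq, GRCm38.p6, all 10 genes matched) were searched on both strands for 4 short motifs known from muscle promoters: the MCAT element CATTCC, the CArG box, the GATA-type motif AGATAA and the TATA box TATAAA. The motifs do not overlap each other in these windows. Of 32841 such windows in the genome table, 12.6% held the MCAT element, 1.47% the CArG box, 9.99% the GATA-type motif and 12.4% the TATA box. The CArG boxes of the actin pair, of which Acta1 rose after MI and Actc1 did not, are printed. So are the MCAT elements of Acta1, Ankrd1 and Myh6, of which Myh6 fell at 24 h in uninjected hearts. Each stretch has 30 bases, is written 5′ to 3′ on the strand of the gene, and carries the motif in capitals; GGAATG is the MCAT element read on the opposite strand.
Acta1 CArG box, chr8:123894829-123894858, minus strand: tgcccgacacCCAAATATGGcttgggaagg
Actc1 CArG box, chr2:114052903-114052932, minus strand: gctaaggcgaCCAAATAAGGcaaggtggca
Acta1 MCAT element, chr8:123894804-123894833, minus strand: gaagggcagcaaCATTCCttcggggcggtg
Ankrd1 distal MCAT element, chr19:36120037-36120066, minus strand: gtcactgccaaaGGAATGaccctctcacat
Ankrd1 proximal MCAT element, chr19:36119950-36119979, minus strand: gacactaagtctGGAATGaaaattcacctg
Myh6 MCAT element, chr14:54966796-54966825, minus strand: ctttggggaggaGGAATGtgcccaaggact
The Acta1 CArG box lies 73 to 64 bases before the start of the gene and that of Actc1 47 to 38 bases before it. Nppa and Acta1 each held 1 TATA box, 9 to 4 and 7 to 2 bases before the RefSeq start. Nppb held 1 MCAT element, 1 GATA-type motif and 1 TATA box, the last 31 to 26 bases before its start. Ankrd1 also held 1 GATA-type motif, and Corin, Npr1, Npr3 and Myh7 held no match. In uninjected hearts at 24 h, genes that rose and genes that fell thus both held the MCAT element. Myh6 was higher than sham in Luc hearts at 24 h. The RefSeq start of Nppb is 112 bases downstream of the start in the deposited table, so its window overlaps the deposited gene and is not printed.

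The comparison of hearts 4 h post-MI with controls asked what had moved in the earliest hours. None of the 10 genes passed an adjusted p of 0.05 in limma (Benjamini-Hochberg over 12487 genes), and 1 of them, Nppb, had an unadjusted p under 0.05. In this comparison 1.55% of all genes tested were called higher and 0.817% lower, so a count of 0 among 10 genes is near the background. The median log2 fold change of the 10 genes was -0.03, as for all genes. Nppb was at 167, 58.4 and 38.2 CPM in control libraries D, H and I and at 198, 310 and 134 CPM in the 4 h libraries C, D and E. Only control D lay within the range of the 4 h hearts. The log2 fold change, on the log2(CPM + 1) scale used throughout, was 1.47 ± 0.45 (SE, limma, adjusted p = 0.13). Without control D it was 2.07 (adjusted p = 0.0098). Nppa was at 294, 79.5 and 134 CPM in the controls and at 178, 145 and 110 CPM at 4 h, so that the groups overlapped (log2 fold change -0.05, 95% confidence interval -0.88 to 0.79). The intervals of Myh6 and Myh7 likewise spanned 0, with means of 17000 ± 325 CPM against 17400 ± 131 CPM for Myh6 and 1070 ± 8.39 CPM against 1110 ± 35.6 CPM for Myh7 (SD, n = 3 each).

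At 24 h post-MI, 4 of the 10 genes were higher than in controls, Nppa, Nppb, Acta1 and Ankrd1, and 4 were lower, Myh6, Corin, Myh7 and Npr3. Npr1 and Actc1 did not pass the test. The background of this comparison was broad, with 35.6% of the 12487 genes called higher and 30.3% called lower by the same rule, so the count of 8 called genes is not by itself a result about these genes. Their place among all fold changes is given instead, for Nppb, Nppa, Ankrd1 and Myh6 below and for the others here. Of all genes tested, 5.21% rose at least as far as Acta1. Falls at least as large as those of Corin, Myh7 and Npr3 were seen in 5.67%, 17.6% and 17.9%.

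Nppb, the B-type peptide precursor, had the largest fold change of the 10. It was at 1244, 1540, 1638 and 1793 CPM in 24 h libraries C, D, G and H against 38.2 to 167 CPM in the controls. The groups were far apart, and the mean was 17.7-fold higher, with a log2 fold change of 4.40 ± 0.42 (SE; limma, adjusted p = 4.8e-06). Of all genes tested, 0.553% had a log2 fold change at least as large. Nppa was at 1820, 1148, 1400 and 1743 CPM at 24 h against 79.5 to 294 CPM in the controls. Again no 24 h library reached down to a control, and the mean was 9.04-fold higher (log2 fold change 3.35 ± 0.36, adjusted p = 1.1e-05), a size that 1.39% of genes reached. Without control D, the highest control for both, the log2 fold changes were 5.0 for Nppb and 3.85 for Nppa, and the means 32.2-fold and 14.3-fold higher. The ventricle is not the only source of Nppa, since atrial muscle expresses it strongly. Among the uninjected libraries 2 of 4 atrial marker genes were listed, Myl4 and Sln, and their summed level was 1.01 to 1.92 CPM in the controls, 1.43 to 2.58 CPM at 4 h and 1.61 to 3.01 CPM at 24 h. Myl7 and Bmp10 were not among the genes listed, and the part of atrial RNA in the level of Nppa was not tested.

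Ankrd1, the stretch-responsive gene, was at 8168, 9526, 10177 and 8063 CPM in 24 h libraries C, D, G and H and at 902, 1721 and 1119 CPM in controls D, H and I. The 24 h values lay in a narrow band well above every control. The mean was 7.20-fold higher, the log2 fold change 2.89 ± 0.23 (adjusted p = 1.6e-06), and 2.05% of genes changed at least as far upward. Acta1, the skeletal actin that the fetal heart uses, was at 894, 652, 1318 and 1629 CPM against 624, 203 and 163 CPM. Control D, at 624 CPM, almost reached the lowest 24 h library, and the SD of the controls was accordingly 256 CPM around a mean of 330 CPM. The log2 fold change was 1.94 ± 0.42 (adjusted p = 0.0016), and the mean was 3.40-fold higher. Without control D the mean was 6.14-fold higher (adjusted p = 6.7e-05). Acta1 is the main actin of skeletal muscle, so skeletal muscle markers were summed over the 7 of 9 that were listed. They stood at 2.70 to 3.49 CPM in the controls and 2.31 to 2.84 CPM at 24 h, and their part in the level of Acta1 was not tested.

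**Figure D1:**
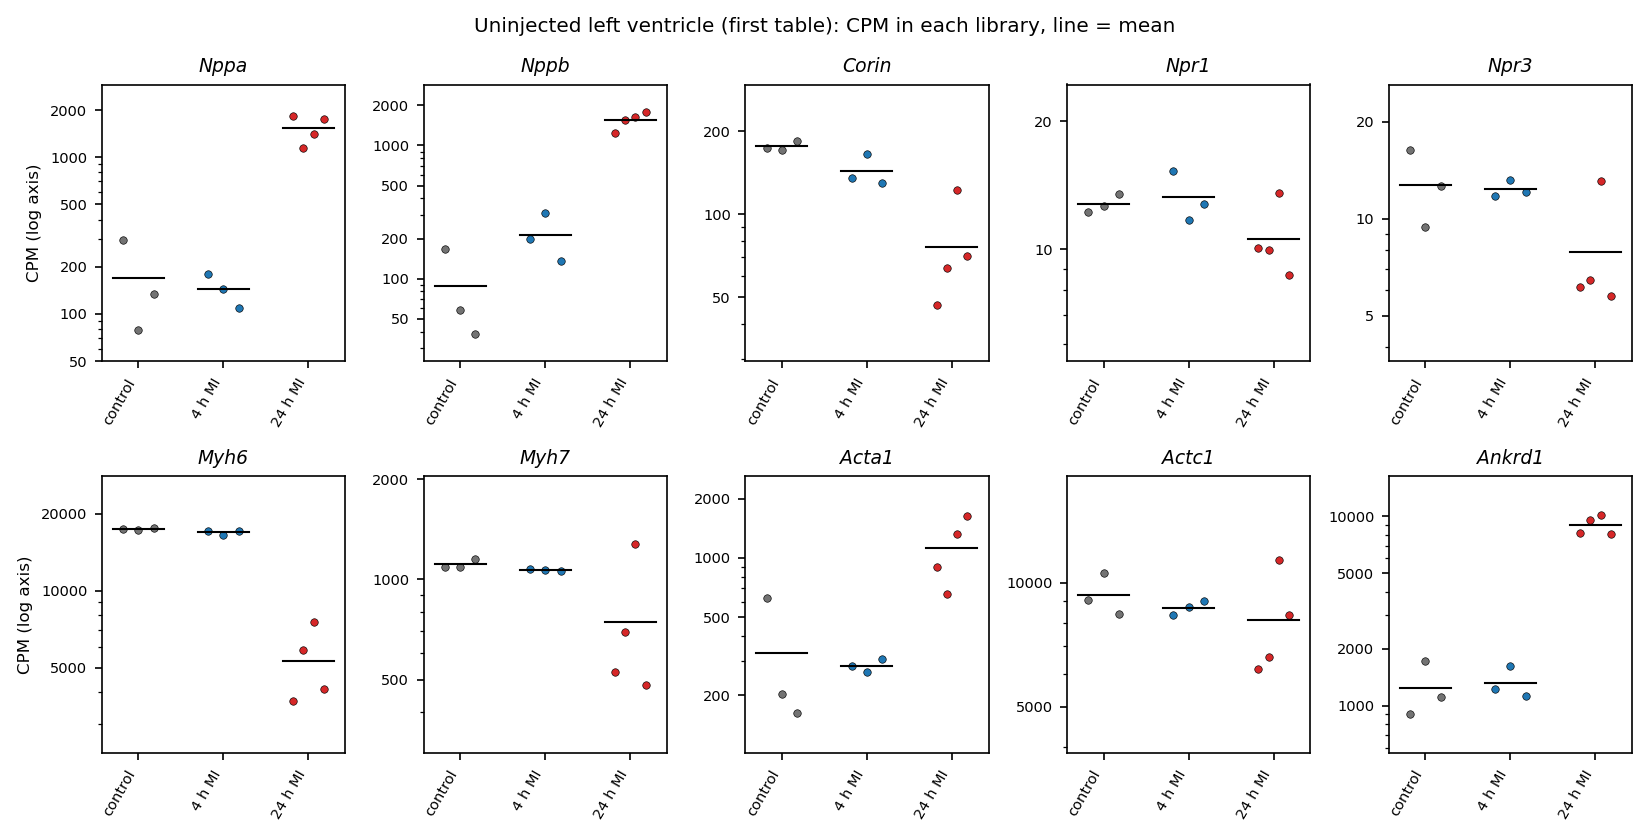
CPM of each of the 10 genes (log axes, a scale of its own per panel) in the 10 libraries of uninjected LV: 3 controls (grey), 3 hearts 4 h post-MI (blue) and 4 hearts 24 h post-MI (red), 1 point per library, with the line at the group mean. Nppa, Nppb and Ankrd1 lie apart at 24 h from both other groups, Myh6 lies lower at 24 h (3706 to 7568 CPM), and control D gives the highest control value of Nppa, Nppb and Acta1.

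Myh6, the adult myosin, was at 17379, 17344 and 17586 CPM in controls D, H and I, and at 3706, 5873, 7568 and 4114 CPM in 24 h libraries C, D, G and H. The 24 h libraries all lay under the lowest control, with library G the nearest. The log2 fold change was -1.77 ± 0.27 (SE; limma, adjusted p = 0.00015), which put the 24 h mean at 0.305 of control, and 2.11% of genes fell at least as far. Myh7, the beta isoform, was lower as well, not higher, with 528, 695, 1278 and 481 CPM against 1091, 1086 and 1150 CPM. Library G was above all 3 controls and the other 3 were under them. The log2 fold change of Myh7 was -0.68 ± 0.27 (adjusted p = 0.042), and this call was fragile: without library G it was -0.98 (adjusted p = 6.8e-05), and leaving out any of the other 6 libraries (24 h C, D or H, control D, H or I) ended the call, with adjusted p from 0.072 to 0.12, as did a fit of the compared groups alone (0.076). Mhrt, which overlaps Myh7 on the other strand and whose reads cannot be told apart from it unless strand was used in counting, was at 58.4 to 64.6 CPM in controls and 18.2 to 24.0 CPM at 24 h. In bulk tissue, fewer cardiomyocytes and less RNA per cardiomyocyte cannot be told apart. The 8 cardiomyocyte structural genes summed to 21400 to 22300 CPM in the controls and to 13400 to 19400 CPM at 24 h, while 7 leukocyte genes summed to 63.2 to 124 CPM and to 495 to 2060 CPM; their part in the fall of Myh6 and Myh7 was not tested.

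The protease Corin fell at 24 h. It was at 174, 171 and 184 CPM in controls D, H and I and at 46.9, 63.9, 122 and 70.7 CPM in 24 h libraries C, D, G and H, so that the highest 24 h library, G, was still under every control. The log2 fold change was -1.29 ± 0.24 (SE; limma, adjusted p = 0.00069). Npr3, the clearance receptor, was at 16.3, 9.42 and 12.6 CPM against 6.15, 6.49, 13.1 and 5.78 CPM, with library G inside the control range and the other 24 h libraries under it. Its log2 fold change of -0.67 ± 0.24 (adjusted p = 0.030) became -0.92 without G (adjusted p = 0.00037), and the call was lost without 24 h C, D or H or without control D or I (adjusted p 0.067 to 0.13) or when the compared groups were fitted alone (0.055). Npr1, the signalling receptor, was at 12.3, 12.6 and 13.5 CPM in the controls and at 10.1, 9.95, 13.6 and 8.71 CPM at 24 h. The groups overlapped through library G, and the log2 fold change was -0.27 (95% confidence interval -0.58 to 0.04; adjusted p = 0.12); without G it was -0.38 (adjusted p = 0.012). Actc1, the cardiac actin, was at 9065, 10535 and 8371 CPM in the controls and at 6183, 6585, 11320 and 8329 CPM at 24 h, with overlapping groups and a log2 fold change of -0.24 (95% confidence interval -0.78 to 0.30).

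Between 4 h and 24 h post-MI, which share no libraries, 4 genes rose (Nppa by a log2 fold change of 3.40, Nppb by 2.92, Ankrd1 by 2.78, Acta1 by 1.90) and 3 fell (Myh6 by 1.73 on the log2 scale, Corin by 0.99, Npr3 by 0.66). By the same limma rule 37.2% of all genes were called higher and 26.7% lower. The Npr3 call, at an adjusted p of 0.034, was lost when any library but G was left out (adjusted p 0.066 to 0.090). Myh7, at a log2 fold change of -0.63 and an adjusted p of 0.061, passed the test only without G (-0.92, adjusted p = 0.00012). Nppb was at 214 ± 88.7 CPM (SD, n = 3) at 4 h, a level that did not pass the test against control. Its step from 4 h to 24 h was 7.26-fold, and its distance from control at 24 h was 17.7-fold.

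Ratios of related genes within a library hardly depend on how libraries were scaled. CPM are not divided by gene length, so only changes of a ratio are read, not its size. Myh7 was 6.28%, 6.26% and 6.54% of Myh6 in controls D, H and I, 6.26%, 6.44% and 6.15% in the 4 h libraries, and 14.2%, 11.8%, 16.9% and 11.7% in 24 h libraries C, D, G and H. All 4 infarcted hearts at 24 h thus lay above all others, and the ratio moved toward Myh7 although both genes were lower. The difference from control was 1.09 on the log2 scale (exact permutation test, two-sided, p = 0.029, the smallest that 4 against 3 libraries can give; 0.13 after adjustment over 18 such tests). Acta1 was 6.89%, 1.93% and 1.95% of Actc1 in the controls and 14.5%, 9.90%, 11.6% and 19.6% at 24 h, again without overlap (difference 2.18, exact permutation p = 0.029, adjusted 0.13). Nppa was 176%, 136% and 350% of Nppb in the controls and 74.5% to 146% at 24 h, and these ranges overlapped (difference -1.05, exact permutation p = 0.086, adjusted 0.22). None of the 18 tests passed after adjustment.

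Levels were also set against the mean log2 level of the 8 cardiomyocyte structural genes in the same library, as a description without a test. That mean was 11.19 in controls and 10.72 at 24 h. The difference shifts every gene alike, so rises come out larger and falls smaller by construction. Nppb stood 4.87 higher than in controls on the log2 scale relative to those genes, Nppa 3.82, Ankrd1 3.36 and Acta1 2.41, each without overlap between groups. Myh6 stood 1.30 lower (difference -1.30) and Corin 0.82 lower (difference -0.82), also without overlap. How many of all genes show no overlap between these groups was not counted. The differences of Npr3 (-0.20), Myh7 (-0.21), Npr1 (0.20) and Actc1 (0.23) were within overlapping groups. The overlap of Myh7 rested on library G: without it the difference was -0.40 and the groups did not overlap, while Npr3 overlapped still (-0.34).

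Other genes of the same pathways were read from 4 lists, beside the 35.6% and 30.3% of all genes called at 24 h post-MI against control. The list for the natriuretic peptide pathway held 16 symbols, some being an older and a newer symbol of the same guanylyl cyclase gene. Of these, 11 could be tested: 1 was higher, 7 were lower and 3 did not pass. Their median log2 fold change was -0.84 against 0.04 for all genes. Pcsk6, the protease known to activate Corin, fell by 2.54, and Npr2, the receptor for C-type natriuretic peptide, fell by 1.14 (log2 fold changes). Gucy1a3 and Gucy1b3 fell by 1.45 and 0.84 on the same scale. They encode subunits of the nitric oxide-sensing guanylyl cyclase, which is not a natriuretic peptide receptor. The 1 higher gene, named after its values were seen, was Furin, a protease that can cut the B-type precursor, at 129 CPM against 77.7 CPM. Of 17 transcription factors and regulators of the fetal program, none was higher and 9 were lower, with a median of -0.34. Mef2c fell by 1.20, Mef2a by 1.10, Hdac9 by 1.07 and Tbx5 by 1.05. Of 17 tested genes of fetal or stretched myocardium, 12 were higher, 2 lower and 3 did not pass, with a median of 1.71: Ankrd2 (a relative of Ankrd1) rose by 6.62, Fhl1 by 4.01, Slc2a1 (the fetal glucose transporter) by 3.82 and Flnc (filamin C) by 3.48. Ankrd2 was at a mean of only 0.0849 CPM in controls and 106 CPM at 24 h, so its fold change depends on the 1 CPM added. Of the 8 cardiomyocyte structural genes, 1 rose and 3 fell, with Mybpc3 (myosin binding protein C) at -1.78, Ttn at -0.97, Tnni3 at -0.67 and Tnnc1 at 0.41. At 4 h, 1 gene of the stretched myocardium list was higher, Xirp1 (log2 fold change 1.57, adjusted p = 0.0011), and the other 16 of that list did not pass; of the transcription factors 1 was lower, Nfatc4, at 2.74 CPM against 4.44 CPM (named after its values were seen, being under 10 CPM).

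In the second table, Luc-injected infarcted hearts were compared with the 2 sham libraries at each time, all against the same sham pair. The pair itself differed widely: sham 1 and sham 2 were at 116 and 59.2 CPM for Nppa, 131 and 36.1 CPM for Nppb, 116 and 45.9 CPM for Acta1, 10381 and 18078 CPM for Myh6, and 514 and 1005 CPM for Myh7. Fold changes against sham therefore rest on a mean that either library could move.

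At 4 h, Nppb was the 1 gene of the 10 that was higher in Luc hearts than in sham, and none was lower, beside 1.25% of 12555 genes called higher and 0.295% lower. Nppb was at 324, 310, 271 and 337 CPM in Luc libraries 1 to 4, all above both sham libraries. Its log2 fold change was 2.15 ± 0.39 (SE; limma, adjusted p = 0.0034); without sham 1 it was 3.06, and without sham 2 it was 1.23 and no longer passed (adjusted p = 0.11). Acta1, at 170 to 242 CPM, was also above both sham libraries, with a log2 fold change of 1.54 ± 0.40 that missed the threshold (adjusted p = 0.054) and passed it without sham 1 (2.19, adjusted p = 0.048). Nppa, at 107 to 168 CPM, overlapped sham (log2 fold change 0.59, adjusted p = 0.54).

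At 24 h, 6 of the 10 genes were higher in Luc hearts than in sham and none was lower; the background was 25.3% higher and 8.79% lower. Acta1 was at 666, 404 and 814 CPM in Luc libraries A, C and D (log2 fold change 3.03 ± 0.42; limma, adjusted p = 1.7e-05), and 1.16% of genes rose at least as far. Nppb was at 500, 197 and 344 CPM (2.21 ± 0.41) and Nppa at 460, 316 and 324 CPM (2.11 ± 0.43), both clear of sham. Ankrd1 was at 4835, 2488 and 4297 CPM, against 1313 and 1031 CPM in sham (1.68 ± 0.23).

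Both myosin genes were higher at 24 h in this table. Myh7 was at 1804, 1709 and 2483 CPM and Myh6 at 24992, 21302 and 27749 CPM, above both sham libraries, with log2 fold changes of 1.45 ± 0.29 (limma, adjusted p = 0.00070) and 0.84 ± 0.28 (adjusted p = 0.023). The uninjected hearts at 24 h gave falls for both in the first table, and that contrast was not tested. The tables differ in injection and were normalized separately. They also differ in Rn45s, at 6881 to 40038 CPM in the first table and 8.7 to 88.1 CPM in the second. The Myh7 call was lost without sham 1 (0.97, adjusted p = 0.061). The Myh6 call was lost without sham 1 (0.44, adjusted p = 0.39) and without Luc A (0.83, adjusted p = 0.052) or Luc D (0.75, adjusted p = 0.074). Median-ratio scaling, which moved the median of all genes by -0.17, left Myh7 called (1.26) and Myh6 not (0.65, adjusted p = 0.069), and moved the share of calls that were higher from 74.2% to 53.4%. The cardiomyocyte genes summed to 31800 to 42100 CPM in these libraries, against 23900 and 32400 CPM in sham, and leukocyte genes to 104 to 154 CPM, against 83.0 and 160 CPM.

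At 48 h, Acta1 (839, 695, 1073 and 762 CPM in Luc libraries 1 to 4), Nppa (1090, 897, 491 and 1106 CPM), Nppb (990, 776, 682 and 389 CPM) and Ankrd1 (3875, 2648, 4160 and 3346 CPM) were higher than sham, with log2 fold changes of 3.49 ± 0.40, 3.35 ± 0.41, 3.26 ± 0.39 and 1.57 ± 0.22 (SE; limma, adjusted p from 2.9e-06 to 2.1e-05). No library of these 4 genes overlapped the 2 sham libraries, and how many of all genes did likewise was not counted. Only 0.215% to 0.295% of all genes rose as far as Acta1, Nppa or Nppb, and the background of calls was 13.7% higher and 16.4% lower. Npr3 was lower, at 11.4, 5.73, 7.53 and 6.83 CPM against 15.5 and 11.5 CPM, with a log2 fold change of -0.73 (adjusted p = 0.017) that did not pass without sham 1 (-0.53, adjusted p = 0.22). Actc1 was lower by 0.49 on the log2 scale (difference -0.49, adjusted p = 0.041), and the call was lost without Luc 2 or 3 or either sham library (adjusted p 0.056 to 0.15). Cardiomyocyte genes summed to 18900 to 27500 CPM, against 23900 and 32400 CPM in sham, and leukocyte genes to 268 to 533 CPM, against 83.0 and 160 CPM; their part was not tested. Myh6 and Myh7 overlapped sham at this time, with log2 fold changes of -0.29 and 0.32.

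The time course of the Luc hearts can be read without the sham pair. From 4 h to 24 h, 5 genes rose: Nppa (1.52), Acta1 (1.49), Ankrd1 (1.21), Myh7 (1.04) and Myh6 (0.79, lost without Luc D at 24 h: 0.70, adjusted p = 0.058), beside 24.5% of genes called higher and 7.80% lower by limma. Nppb did not move over that step (0.06, 95% confidence interval -0.65 to 0.78). From 24 h to 48 h, Nppa (1.24) and Nppb (1.05) rose, and Myh7 (-1.14), Myh6 (-1.13) and Actc1 (-0.69) fell, beside 9.32% higher and 32.6% lower. The Nppb call of that step was lost without Luc C at 24 h (0.69, adjusted p = 0.14) or Luc 1 at 48 h (0.87, adjusted p = 0.057). From 4 h to 48 h, Nppa (2.76), Acta1 (1.95), Nppb (1.12) and Ankrd1 (1.11) rose and Actc1 (-0.71) and Npr1 (-0.46) fell, beside 15.0% and 21.5%. The Npr1 call (adjusted p = 0.041) was lost without Luc 1, 2 or 3 at 48 h or Luc 1, 2 or 4 at 4 h (adjusted p 0.068 to 0.12). For Myh6 and Myh7 the differences from 4 h to 48 h, -0.34 and -0.10, did not pass, although 3 of 4 libraries at 48 h for Myh6 and 1 of 4 for Myh7 lay under the lowest 4 h library. With array weights that of Myh6 passed (-0.54, limma, adjusted p = 0.0076). Cardiomyocyte genes summed to 29000 to 36500 CPM in Luc hearts at 4 h, 31800 to 42100 CPM at 24 h and 18900 to 27500 CPM at 48 h, and leukocyte genes to 191 to 294, 104 to 154 and 268 to 533 CPM. Neither sum overlapped between 24 h and 48 h. Red blood cell genes summed to 1700 to 2560 CPM at 4 h, 392 to 926 CPM at 24 h and 144 to 301 CPM at 48 h, without overlap between times. The part of these sums in the falls of Myh6, Myh7, Actc1 and Npr1 was not tested. Median-ratio scaling moved the median of all genes by -0.15 in the step from 4 h to 24 h and by 0.22 in the step from 24 h to 48 h, and the share of calls that were higher from 75.9% to 52.1% and from 22.3% to 49.7%. No direction given here changed under it, and of the calls that of Npr1 was lost (-0.39, adjusted p = 0.072).

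**Figure D2:**
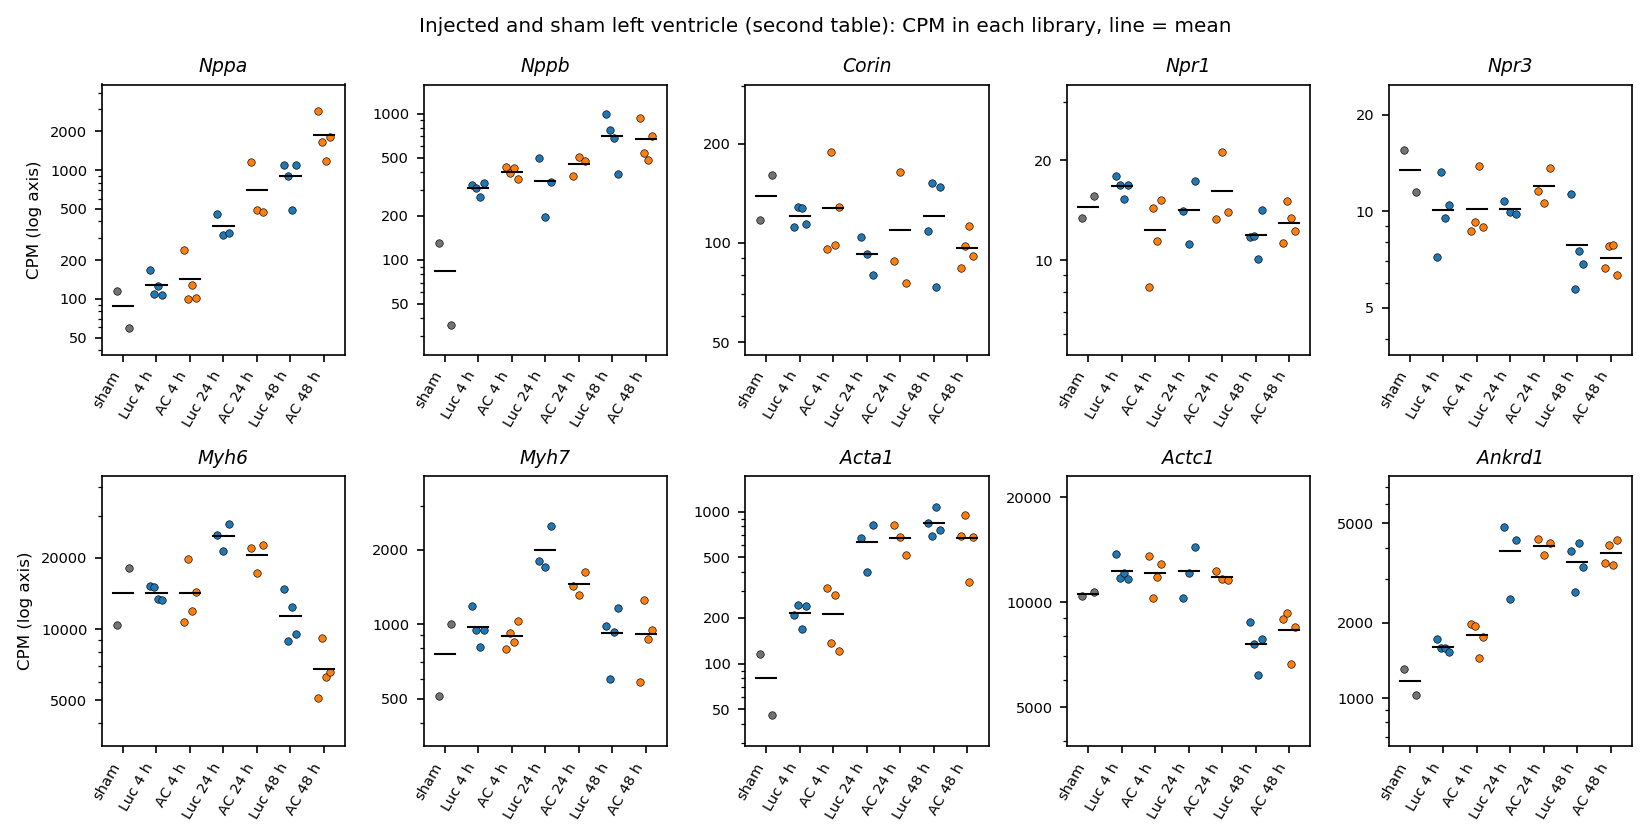
CPM of each of the 10 genes (log axes, a scale of its own per panel) in the 24 libraries of the second table: sham (grey), Luc (blue) and AC (orange) hearts at 4, 24 and 48 h, 1 point per library, with the line at the group mean. After MI, Nppa is higher at each later time, Nppb is above sham from 4 h on, and Myh6 and Myh7 are highest at 24 h (Myh6 21302 to 27749 CPM in Luc hearts).

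Atrial genes moved with time in the second table, in contrast to the first. Of 4 atrial markers, 3 were listed (Myl4, Myl7 and Sln). Their summed level was 0.945 and 1.49 CPM in sham, 1.12 to 2.69 CPM in Luc and 1.18 to 3.02 CPM in AC hearts at 4 h, then 45.5 to 190 CPM in Luc and 23.5 to 353 CPM in AC hearts at 24 h, and 4.35 to 63.3 CPM in Luc and 28.3 to 95.04 CPM in AC hearts at 48 h. Libraries with an atrial sum of up to 3.02 CPM had at most 238 CPM of Nppa, and those with 4.35 CPM or more had at least 316 CPM. Among the latter, Luc library 2 at 48 h had 897 CPM of Nppa with 4.35 CPM of atrial genes, and Luc library D at 24 h had 324 CPM of Nppa with 190 CPM of them. The highest atrial sum, 353 CPM, was in AC library A at 24 h, which also had the highest Nppa of the 24 h libraries (1151 CPM). Their part in the level of Nppa was not tested. Skeletal muscle markers summed to 2.30 to 3.23 CPM in sham, 2.65 to 3.61 CPM in Luc and 2.06 to 4.45 CPM in AC hearts at 4 h. At 24 h they were higher, at 4.16 to 6.14 CPM in Luc and 4.74 to 6.07 CPM in AC hearts. At 48 h they were at 3.41 to 4.52 CPM in Luc and 3.27 to 5.03 CPM in AC hearts. The part of skeletal muscle in the level of Acta1 was not tested.

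**Figure D3:**
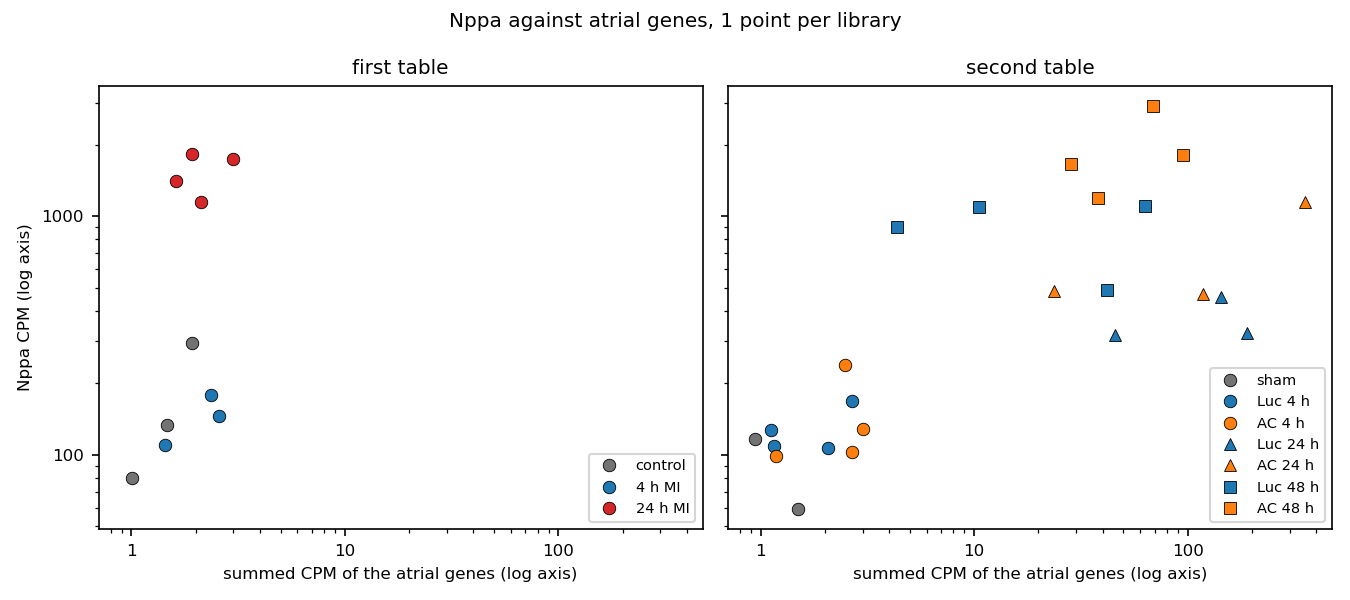
CPM of Nppa (vertical, log axis) against the summed CPM of the listed atrial genes (horizontal, log axis), 1 point per library, in the first table (left: control, 4 h and 24 h uninjected hearts) and the second (right: sham, Luc and AC hearts; circles 4 h and sham, triangles 24 h, squares 48 h). In the first table Nppa differs at atrial sums of 1.01 to 3.01 CPM throughout, while in the second the 24 h and 48 h libraries lie at 4.35 to 353 CPM.

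AC-injected and Luc-injected hearts were compared at each time. At 4 h none of the 10 genes passed in limma and 1 had an unadjusted p under 0.05, and the same counts, 0 and 1, held at 24 h; at either time 0.00796% of genes were called higher and 0.0% lower. The gene at 4 h was Npr1, at 8.31 to 15.2 CPM in AC and 15.3 to 17.9 CPM in Luc hearts (log2 fold change -0.44, 95% confidence interval -0.80 to -0.08, adjusted p = 1.0). The gene at 24 h was Nppa, at 1151, 488 and 471 CPM in AC libraries A, C and D against 460, 316 and 324 CPM (log2 fold change 0.83, 95% confidence interval 0.03 to 1.62, adjusted p = 0.99). Without AC library A, which had the highest summed level of the atrial marker genes, that difference was 0.41 (adjusted p = 0.84). The part of those genes in it was not tested.

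At 48 h, Nppa was higher and Myh6 lower in AC than in Luc hearts, and the other 8 genes did not pass, beside a background of 12.1% higher and 3.27% lower. Cardiomyocyte genes summed to 14200 to 20700 CPM in AC and 18900 to 27500 CPM in Luc hearts, leukocyte genes to 443 to 577 and 268 to 533 CPM, and fibroblast genes to 1330 to 2090 and 752 to 1170 CPM, the last without overlap; their part in these differences was not tested. Nppa was at 2898, 1660, 1189 and 1807 CPM in AC libraries 1, 2, 4 and 5 and at 1090, 897, 491 and 1106 CPM in Luc libraries 1 to 4. Every AC library lay above every Luc library, and the log2 fold change was 1.07 ± 0.33 (SE; limma, adjusted p = 0.033). Atrial genes were at 68.5, 28.3, 38.1 and 95.04 CPM in the AC libraries against 10.5, 4.35, 41.7 and 63.3 CPM in the Luc libraries; their part was not tested. Myh6 was at 5131, 9183, 6261 and 6621 CPM in AC hearts and at 14747, 8953, 12348 and 9572 CPM in Luc hearts, so that AC 2 lay just above the lowest Luc library. Its log2 fold change was -0.75 ± 0.22 (adjusted p = 0.022). Relative to the cardiomyocyte genes, without a test, Myh6 differed by -0.43 with overlapping groups and Nppa by 1.39 without overlap. The mean log2 level of the cardiomyocyte genes was 10.82 in AC and 11.13 in Luc hearts, a difference that shifts every gene alike. Neither call was firm. That of Nppa was lost without AC 1, 2 or 5 or without Luc 3 (adjusted p 0.064 to 0.16), and that of Myh6 without AC 1, 4 or 5 or without Luc 1 or 3 (adjusted p 0.051 to 0.084). Myh6 also missed the threshold without a filter on low genes (0.12) and in the compared groups alone (0.076). With array weights 4 genes were called, Corin (-0.56) and Ankrd1 (0.45) in addition. Median-ratio scaling moved the median of all genes by -0.12 and the share of calls that were higher from 78.7% to 52.2%, and took Nppa to 0.93 (adjusted p = 0.065) and Myh6 to -0.89 (adjusted p = 0.0075). Myh7 was at 914 ± 276 CPM in AC and 920 ± 233 CPM in Luc hearts (SD, n = 4 each), a log2 difference of -0.02 (95% confidence interval -0.49 to 0.45).

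From 4 h to 24 h, AC hearts showed rises of Nppa (2.26), Acta1 (1.75) and Ankrd1 (1.20), beside 14.9% of genes called higher and 3.80% lower by limma. Median-ratio scaling moved the share of calls that were higher from 79.7% to 51.7% in that step and left these 3 directions as they were. From 4 h to 48 h, Nppa (3.74), Acta1 (1.67) and Ankrd1 (1.10) rose and Myh6 (-1.06) and Actc1 (-0.55) fell, beside 26.6% and 21.0%. Over the same step cardiomyocyte genes went from 24100 to 47100 CPM to 14200 to 20700 CPM. Fibroblast genes went from 646 to 785 CPM to 1330 to 2090 CPM and leukocyte genes from 180 to 226 CPM to 443 to 577 CPM. Red blood cell genes went from 2420 to 10700 CPM to 81.3 to 231 CPM. None of these sums overlapped between the times, and their part was not tested. Whether these changes differed from those of Luc hearts was tested directly as an interaction. None of the 10 genes passed for the step to 24 h (1 with an unadjusted p under 0.05, Npr1, with a difference of 0.61 and an adjusted p of 1.0; background 0.0% higher and 0.00796% lower) or for the step to 48 h (3 with an unadjusted p under 0.05, background 2.88% higher and 0.470% lower). Those 3 were Nppa, with an AC change larger by 0.99 (95% confidence interval 0.01 to 1.96, adjusted p = 0.26), Myh6, with a difference of -0.71 (adjusted p = 0.20), and Npr1, with a difference of 0.56 (adjusted p = 0.22). Over all genes the share of calls that were higher in the step to 48 h was 86.0%, and 61.2% with median-ratio scaling.

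**Figure D4:**
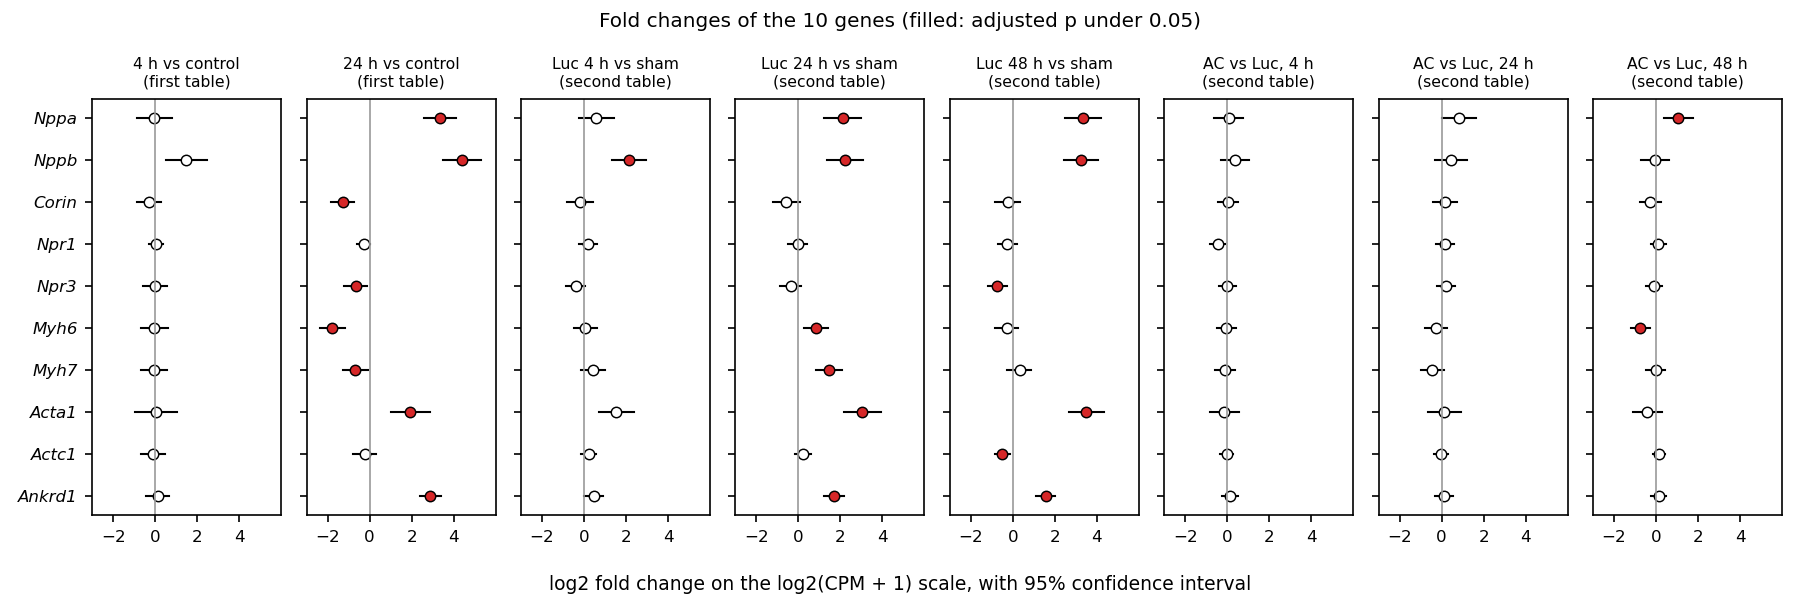
Log2 fold changes on the log2(CPM + 1) scale (horizontal) with 95% confidence intervals (bars) of the 10 genes (rows) in 8 comparisons (panels), filled where the limma adjusted p is under 0.05. The panels against sham share 1 sham pair, and those of uninjected hearts share 3 controls; Nppa and Myh6 are the filled genes of AC against Luc hearts at 48 h (1.07 and -0.75).

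The same ratios were read in the second table, where none of the tests passed after adjustment. Acta1 was 1.40% to 2.07% of Actc1 in Luc hearts at 4 h and 9.14% to 17.3% at 48 h, with no overlap (difference 2.66, exact permutation test p = 0.029, the smallest possible; adjusted 0.13). Nppa was 31.6% to 52.0% of Nppb in Luc hearts at 4 h and 72.0% to 285% at 48 h (difference 1.64, exact permutation p = 0.029, adjusted 0.13), again without overlap. Myh7 was 6.01% to 7.77% of Myh6 in Luc hearts at 4 h and 6.69% to 12.1% at 48 h, which overlapped (difference 0.24, exact permutation p = 0.34). In AC hearts at 48 h Myh7 was 11.3% to 14.4% of Myh6, and only Luc library 4 lay in that range (difference from Luc 0.73, exact permutation p = 0.057, adjusted 0.21). Nppa was 245% to 308% of Nppb in the same AC hearts (difference from Luc 1.12, exact permutation p = 0.086, adjusted 0.22).

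**Figure D5:**
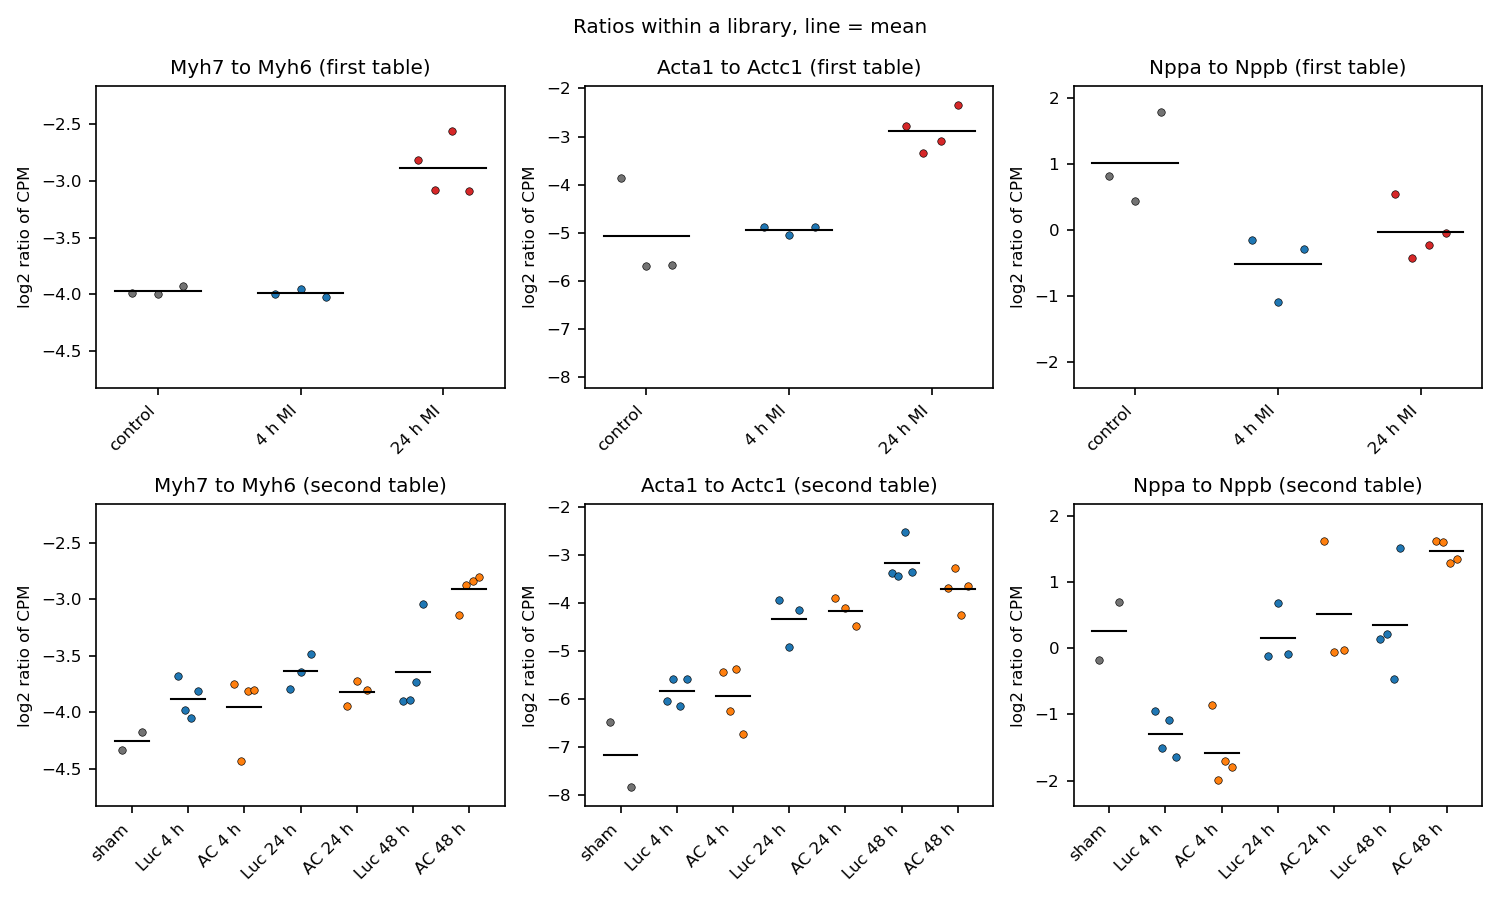
Log2 ratios of CPM within each library for Myh7 to Myh6, Acta1 to Actc1 and Nppa to Nppb, in the first table (top: control, 4 h and 24 h post-MI) and the second (bottom: sham, Luc and AC hearts by time), 1 point per library, with the line at the group mean. The Myh7 to Myh6 ratio is higher in all uninjected hearts at 24 h (11.7% to 16.9%) than in controls (6.26% to 6.54%), and in AC hearts at 48 h (11.3% to 14.4%) than in 3 of 4 Luc hearts.

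The lists were also read in the Luc hearts against sham. Of 18 tested genes of fetal or stretched myocardium, 4 were higher at 4 h, 13 at 24 h and 10 at 48 h, and none was lower at any of these times, beside the backgrounds given above. At 48 h Ankrd2 rose by 4.15, Fhl1 by 2.98, Myl7 by 2.74 and Myl4 by 2.62 (log2 fold changes), the last pair being also the atrial markers above. Of 11 tested genes of the natriuretic peptide list, 1 was higher and 3 were lower at 48 h, with Pcsk6 at -0.93, Furin at 0.80 and Npr2 at -0.49. Of 17 transcription factors and regulators, 7 were higher and 1 was lower at 24 h, and 1 was higher and 1 lower at 48 h. In AC against Luc hearts at 48 h, 2 of these 17 were lower, Hand2 (-0.71) and Gata6 (-0.35), and none was higher.

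Genes whose pattern was most like that of each member were sought among the 7350 genes that averaged 10 CPM or more in both tables (7351 for Npr3), by Pearson's r of log2(CPM + 1) over the 24 libraries of the second table, as a description. Time and tissue content are shared by all these points. Nppa was most like Ms4a6d (r = 0.956, and 0.964 over the 10 libraries of the first table), Ms4a6c (0.934 and 0.942) and Timp1 (0.934 and 0.962), the Ms4a6 genes being known from macrophages. Nppb was most like S100a8 (0.844 and 0.928), Srgn (0.836 and 0.913) and S100a9 (0.828 and 0.929), genes known from neutrophils and other leukocytes. Acta1 was most like Fstl3 (0.910 and 0.901) and Ankrd1 (0.899 and 0.793), and Ankrd1 was most like Fstl3 (0.945 and 0.968). Myh6 was most like Epas1 (0.960 and 0.995), Epb41 (0.953 and 0.977) and Mfn2 (0.944 and 0.970), and Myh7 was most like Jup (0.947 and 0.862) and Dctn1 (0.947 and 0.976). The likeness of Npr3 to Map3k7 (0.804) had no counterpart in the first table (-0.056), nor had that of Myh7 to Sart1 (0.931 and -0.671). Corin was most like Dip2c (0.865 and 0.937), Npr1 like Rab11fip3 (0.792 and 0.569) and Actc1 like Tufm (0.947 and 0.560). Next came Cped1 for Corin (0.861 and 0.3) and Txnrd2 for Actc1 (0.941 and 0.433), both weaker in the first table.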

How the data were processed

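RNA-seq of mouse LV was deposited by the authors as 2 tables of normalized CPM on mm10 per the labels, scaled by TMM in the first table; for the second, CPM was read from the form of the values. In the second table every value was at least 1, so 1 was subtracted before use. Genes averaging 1 CPM or more were kept (12487 and 12555), and log2(CPM + 1) was fitted with limma 3.58.1 (trend, R 4.3.3) over all groups of a table. P-values were adjusted by Benjamini-Hochberg over all genes, with a threshold of 0.05, in 3 comparisons of the first table and 13 of the second. Ratios were compared by exact permutation tests (scipy 1.17.1). The depth of the first table was estimated from its lowest value: 81.5% to 83.7% of low values were whole multiples of it, within 0.02. The scripts were tested on simulated data. The genes and lists were chosen with earlier results of these data known. All 10 genes are named, with up to 4 called genes per list, those of largest fold change and an average of 10 CPM or more. Up to 3 of the most similar genes of each are named. Alternatives were another pseudocount, filter, scaling, weighting, set of libraries and a replicate block, the deposited second-table values as they stand, and each library left out. How AC modRNA was designed, and how the second table's libraries were counted, is not given in the sources used here.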

Additional observations from a re-analysis of the deposited data

Results flagged for a closer look

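In 50 checks of groups of 4 libraries, of which chance flags about 1 in 20, 2 single libraries stood apart from their group, both in Npr3. The uninjected 24 h library G had 13.1 CPM, and the AC 4 h library 3 had 13.9 CPM.

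Effects against a shared control that differed between time points, by limma's test of the difference itself, were those listed here as log2 differences. Between 24 h and 4 h post-MI in uninjected hearts they were 3.40 for Nppa, 2.92 for Nppb, 2.78 for Ankrd1, 1.90 for Acta1, -0.66 for Npr3, -0.99 for Corin and -1.73 for Myh6. Between 24 h and 4 h in Luc hearts they were 1.52 for Nppa, 1.49 for Acta1, 1.21 for Ankrd1, 1.04 for Myh7 and 0.79 for Myh6. Between 48 h and 4 h they were 2.76 for Nppa, 1.95 for Acta1, 1.12 for Nppb, 1.11 for Ankrd1, -0.46 for Npr1 and -0.71 for Actc1. Between 48 h and 24 h they were 1.24 for Nppa, 1.05 for Nppb, -0.69 for Actc1, -1.13 for Myh6 and -1.14 for Myh7.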

How the results depend on the processing

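Of 1167 fold changes refitted under alternatives that kept all libraries, 1111 kept their side of the threshold, 28 lost the call, 28 gained it and none reversed; with 1 library left out, 1206 of 1260 kept it, 45 lost it and 9 gained it. The count of the 10 genes called for 4 h post-MI against control was 1 with array weights, and 0 to 1 with 1 library left out. For Luc hearts at 4 h against sham it was 2 with a pseudocount of 0.1, with the compared groups alone and with the replicate block, and 0 to 2 with 1 library left out. For AC against Luc hearts at 48 h it was 1 without a filter, 1 with the deposited values as they stand, 1 with median-ratio scaling, 1 with the compared groups alone, 4 with array weights, 0 with the replicate block, and 0 to 2 with 1 library left out. For AC hearts from 4 h to 24 h it was 5 with array weights. The cause was not tested. With 1 library left out, the difference at 24 h post-MI against control was 0.98 to 1.16 for the ratio of Myh7 to Myh6 and 1.87 to 2.79 for that of Acta1 to Actc1, where fewer libraries cannot reach the threshold; for Nppa to Nppb in Luc hearts from 4 h to 48 h it was 1.26 to 1.91. Whether letters and numbers of the labels pair the libraries was not settled. Same-labelled libraries deviated together with correlations of -0.26 to 0.55, under 0.1 in some pairs of each comparison. Correlations of differently labelled libraries were not computed beside them. The depth of the second table is unknown, which limits what can be said of Npr1 and Npr3 at 5.73 to 21.2 CPM.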
